A study of Mus musculus with 2 samples.

Results

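Single-exon intergenic transcript models are unspliced long-read transcripts that the deposited tables place outside every annotated gene. They were taken as the rows of novelty class Intergenic with 1 exon that lay on chromosomes 1 to 19. There were 1768 such models in replicate 2, of 92049 models in that library, and 1172 in replicate 1, of 85714 models. A further 77 models in replicate 2 and 57 in replicate 1 lay on other chromosomes or unplaced sequence and were not members.

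The RNA came from gastrocnemius, the large calf muscle, of female B6CASTF1/J mice aged 2 months, a hybrid strain whose reads were placed on the mm10 reference. The study has 1 group of 2 libraries: animal 4 gave replicate 2 and animal 3 gave replicate 1, with 2 µg of RNA and synthetic spike-in transcripts in each. Both carry 1 donor identifier in the labels, so that they are separate animals is known only from the animal numbers. Replicate 2 totalled 1359923 reads and replicate 1 totalled 1349298.

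Transcripts outside annotated genes can arise in several known ways. A gene's 3′ end may lie farther downstream than the annotation records, promoters can fire on the strand opposite to their gene, and independent noncoding RNAs can occur far from any gene. Most mature mRNAs end shortly after a polyadenylation signal, the hexamer AATAAA or its variant ATTAAA, which directs cleavage and addition of the poly(A) tail. Long-read libraries commonly begin from that tail, so a read's 3′ end is usually better defined than its 5′ end.

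The members that can be shown with their own bases are those lying at least 90% inside a RefSeq promoter window of build GRCm38.p6, the assembly behind mm10, which runs from 250 bases before to 50 bases after a gene's start, with their end in the window and a length of at least 100 bases. They are shown because they give the sequence at which such a model ends. All run on the strand opposite to the promoter's gene. Each is written 5′ to 3′ along the model, and capitals mark the AATAAA nearest the end within the last 50 bases. The Zfp933 model spans chr4:147848366-147848633 on the plus strand, and its first 3 bases lie outside the window.
Zfp933, replicate 2: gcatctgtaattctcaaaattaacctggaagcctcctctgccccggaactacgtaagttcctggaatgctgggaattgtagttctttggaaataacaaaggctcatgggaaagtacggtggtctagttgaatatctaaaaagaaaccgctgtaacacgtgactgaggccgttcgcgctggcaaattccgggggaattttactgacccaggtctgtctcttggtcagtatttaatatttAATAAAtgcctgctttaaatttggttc
Cttnbp2nl, replicate 2: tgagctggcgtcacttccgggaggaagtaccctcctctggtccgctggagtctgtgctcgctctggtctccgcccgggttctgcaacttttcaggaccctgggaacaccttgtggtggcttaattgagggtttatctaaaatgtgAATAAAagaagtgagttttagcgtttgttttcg
Zfp207, replicate 1: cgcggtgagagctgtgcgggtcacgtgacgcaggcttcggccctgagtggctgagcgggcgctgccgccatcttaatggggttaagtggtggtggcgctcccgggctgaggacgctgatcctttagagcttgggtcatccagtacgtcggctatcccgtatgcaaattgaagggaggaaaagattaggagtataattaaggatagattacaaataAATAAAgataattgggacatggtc
Rpl22, replicate 1: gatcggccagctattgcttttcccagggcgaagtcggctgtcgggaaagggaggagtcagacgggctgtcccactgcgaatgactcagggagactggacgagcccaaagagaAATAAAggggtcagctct
Gm30149, replicate 1: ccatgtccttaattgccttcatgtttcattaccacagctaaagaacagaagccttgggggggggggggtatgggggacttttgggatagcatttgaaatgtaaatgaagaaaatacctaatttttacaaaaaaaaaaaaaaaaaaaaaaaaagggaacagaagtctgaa
Gm35941, replicate 1: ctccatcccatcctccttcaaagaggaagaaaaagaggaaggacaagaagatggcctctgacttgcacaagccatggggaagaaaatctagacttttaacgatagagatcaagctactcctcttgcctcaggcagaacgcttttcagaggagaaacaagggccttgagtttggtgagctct

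The first 4 of these, opposite genes for the zinc-finger proteins Zfp933 and Zfp207, for Cttnbp2nl and for the ribosomal protein Rpl22, carried AATAAA near their end. In the Zfp933 model, 21 bases followed the hexamer, against 27 in Cttnbp2nl, 18 in Zfp207 and 12 in Rpl22. The Zfp933 locus had 3 reads in replicate 2 and 3 in replicate 1, and the libraries' models ended 3 bases apart. The Cttnbp2nl model (chr3:105053146-105053323, plus strand) had 1 read in each library. The Zfp207 (chr11:80383041-80383279, minus strand) and Rpl22 (chr4:152325613-152325742, minus strand) models had 1 read each, in replicate 1. The models opposite Gm30149 (chr7:73608780-73608948, plus strand) and Gm35941 (chr9:63780745-63780925, plus strand) carried neither hexamer there, and the Gm30149 model held an unbroken run of A close to its end.

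Across both libraries, 26 member ends at 21 loci fell in such windows with their last 50 bases in view. Of these, 10 (38.5%, 95% Wilson interval 22.4 to 57.5%) carried AATAAA or ATTAAA on the model's strand, 4 of 14 in replicate 2 and 6 of 12 in replicate 1. The same hexamers stood in 3.03% of all 376752 consecutive 50-base stretches of the promoter windows, read on both strands. Among ends on the strand opposite to the promoter's gene, 9 of 14 carried a hexamer, at 6 of 10 loci. Among ends on the gene's own strand, 1 of 12 did, at 1 of 11 loci. At least 12 A among the next 20 bases were present after 4 of the 25 ends with that sequence in view (16%), beside 0.882% of 20-base stretches of the windows. These ends are a small selected set, and the other members' sequence was not analysed here.

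Members were few and mostly rested on 1 read. They took 4862 reads in replicate 2, or 0.358% of the library (95% Wilson interval 0.348 to 0.368%), and 2350 reads in replicate 1, or 0.174% (0.167 to 0.181%). A single read supported 73.1% of member models in replicate 2 and 76.1% in replicate 1, a mean of 74.6% ± 2.14 (SD, n = 2). The 12 highest loci of each library held 34.5% of the member reads in replicate 2 and 22.9% in replicate 1.

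Members and single-exon antisense models had more reads in replicate 2, and single-exon annotated models had slightly fewer. Member reads were 2.07 times as many in replicate 2 as in replicate 1. Without the locus of most reads, which had 716 reads in replicate 2 and 0 in replicate 1, 4146 member reads remained in replicate 2 against 2350 in replicate 1. Single-exon antisense models, which lie opposite an annotated gene, had 38305 reads in replicate 2 against 14736 in replicate 1, a ratio of 2.6. Single-exon genomic models, which lie on a gene's own strand without matching its splicing, had 35022 and 25398 reads, a ratio of 1.38. Single-exon annotated models had 20411 and 21696 reads, a ratio of 0.941, and spliced intergenic models had 309 and 279 reads, a ratio of 1.11. Every class was measured in the same 2 libraries, too few for a test between classes, so none was made.

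Members' values stood beside other differences between the libraries. Reads of the 8 skeletal muscle fibre markers were 366823 in replicate 2 and 370494 in replicate 1, all 8 with reads, and the 4 liver markers were at 0 in both. Slow fibre markers (6 of 6 with reads in each) had 11411 reads in replicate 2 and 1459 in replicate 1. Adipocyte markers had 145 reads in replicate 2 (5 of 6 genes) and 1520 in replicate 1 (6 of 6), and nerve markers 132 and 906 reads (6 of 6 in each). Spike-in reads numbered 20086 in replicate 2 and 48695 in replicate 1. The part of these differences in the member counts was not tested.

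Joining the models of both libraries by overlap of at least 1 base on the same strand gave 2502 loci. Of these, 413 (16.5%, 95% Wilson interval 15.1 to 18%) held a model of each library, 1336 were seen in replicate 2 alone and 753 in replicate 1 alone. A total of 1760 loci rested on 1 read and so could not be seen in both. Recurrence went with depth: 255 of 550 loci with 2 to 4 reads (46.4%), 97 of 122 with 5 to 9 reads (79.5%) and 61 of 70 with 10 or more reads (87.1%) were in both libraries. A count of 0 reads in a library allows up to 3 reads, so absence at this depth is not absence from the tissue.

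Taken over models, 23.9% of the members in replicate 2 and 35.6% in replicate 1 met a member of the other library. The same shares were 29.6% and 54.1% for single-exon antisense models, 46% and 52.1% for single-exon genomic models, and 66.9% and 66.4% for single-exon annotated models. Some loci seen in a single library met a model of another class in the other one. In 128 of the 1336 loci seen in replicate 2 alone (9.58%) and 110 of the 753 seen in replicate 1 alone (14.6%), a model of another class overlapped the locus by at least 2 bases on the same strand in the other library. Over all 2502 loci, 364 (14.5%) met such a model in either library.

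Where each library contributed 1 model to a locus, the 3′ ends met closely and the 5′ ends less so. In 330 such loci, the replicate 1 model had no end at an annotated gene end, and the replicate 2 model was not checked for this. Among them, the libraries' 3′ ends were a median of 1 base apart, and 77.6% were within 10 bases. Their 5′ ends were a median of 4 bases apart, and 54.5% were within 10 bases. In 2421 single-exon antisense loci chosen the same way, 80.9% of 3′ ends and 37.5% of 5′ ends were within 10 bases, with a median 5′ gap of 343 bases. The gap between overlapping models is limited by their length, and members were shorter than antisense models. Median lengths were 465 against 1343 bases in replicate 2 and 654 against 1689 bases in replicate 1. The 5′ gaps of the 2 classes were not compared at like length.

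**Figure D1:**
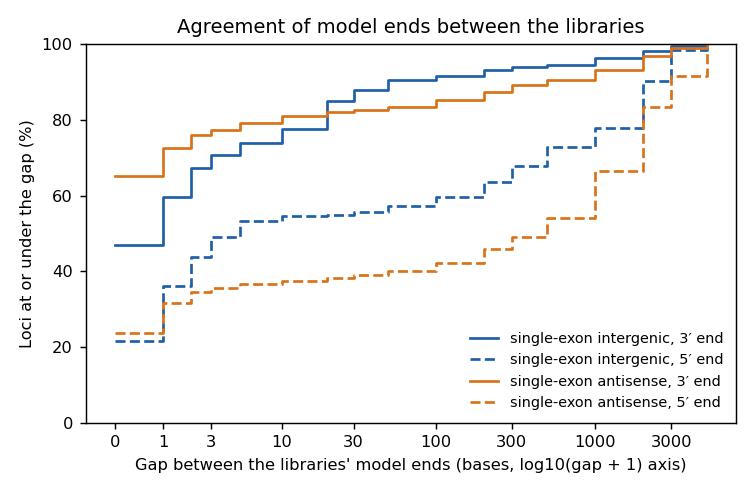
Cumulative share of loci (%) by the gap in bases between the 2 libraries' model ends, for single-exon intergenic loci and single-exon antisense loci. Each locus has 1 model in each library, and its replicate 1 model has no end at an annotated gene end. The 3′ curves lie above the 5′ curves in both classes, and within 10 bases the intergenic 5′ curve stands at 54.5% and the antisense 5′ curve at 37.5%. The classes are not matched for length, and intergenic models are the shorter.

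Members were short, and a narrow length class stood out. The median length was 465 bases in replicate 2 and 654 bases in replicate 1, beside 1343 and 1689 bases for single-exon antisense models and 940 and 1199 bases for single-exon genomic models. The longest members had 8086 bases in replicate 2 and 8087 in replicate 1, and 9 members had a deposited length of 1 base. Models of 170 to 179 bases made up 269 members (15.2%) in replicate 2 and 168 (14.3%) in replicate 1, a mean of 14.8% ± 0.623 (SD, n = 2). The most frequent single length was 177 bases in each library, with 50 models in replicate 2 and 30 in replicate 1.

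The same length class held 2.28% and 2.55% of single-exon antisense models, 2.51% and 1.83% of single-exon genomic models, and 0.375% and 0.372% of single-exon annotated models, in replicate 2 and replicate 1. In every one of these classes and in each library, the share was below that of the members. The peak itself was not particular to members. Antisense models of this class numbered 227 in replicate 2, beside 81 of 160 to 169 bases and 97 of 180 to 189 bases. In replicate 1 they numbered 135, beside 35 and 48. Genomic models in replicate 2 numbered 169, beside 75 and 77. Among members of 180 to 189 bases, 804 reads in replicate 2 stood beside 44 in replicate 1, of which 716 in replicate 2 came from the locus at the pseudogene Gm12671 described below.

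**Figure D2:**
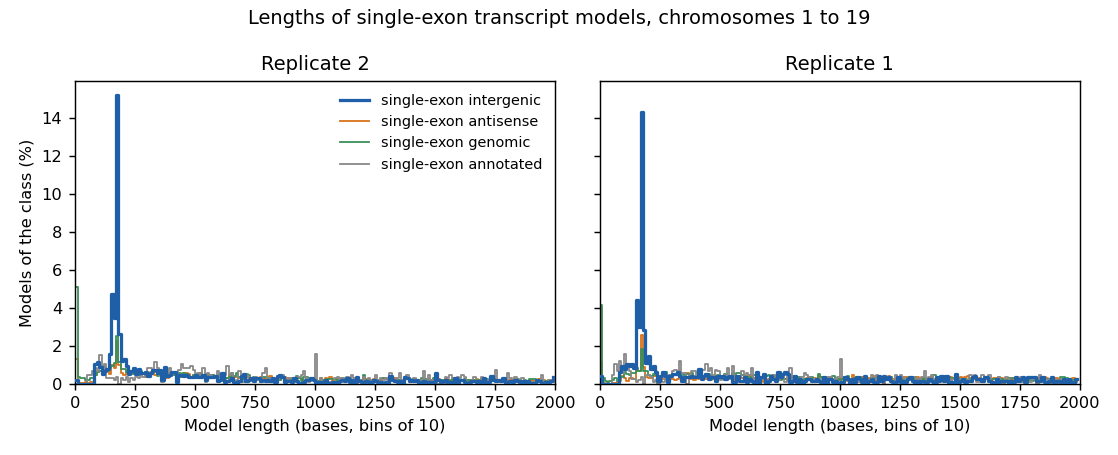
Share of models (%) by length in bins of 10 bases, up to 2000 bases, for the 4 single-exon classes, with replicate 2 on the left and replicate 1 on the right. The intergenic models peak at 15.2% in replicate 2 and 14.3% in replicate 1 in the bin of 170 to 179 bases.

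The 375 loci 170 to 179 bases wide were set beside the other 2127 loci. They lay a median of 5694 bases from the nearest annotated gene end, against 2174 bases for other widths, and 5 of them (1.33%) shared a base with a gene end, against 427 of the others (20.1%). They were spread over all 19 chromosomes and over the 4 arrangements, with 100 downstream on the same strand, 87 downstream on the opposite strand, 104 upstream on the opposite strand and 84 upstream on the same strand. In both libraries were 64 of them (17.1%), against 349 of the other loci (16.4%).

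Most loci lay within 5 kb of an annotated gene end. The largest share was downstream on the gene's own strand, with loci that share a gene's end base counted. The nearest annotated gene end, from the GENCODE M21 gene records, was a median of 2604 bases away, 1610 loci (64.3%) were within 5 kb, and 1680 (67.1%) were nearest a protein-coding gene. Of all loci, 568 (22.7%) lay within 5 kb downstream of a gene on its own strand, beside 5.19% of autosomal intergenic positions counted on both strands. The opposite strand downstream held 431 loci (17.2%), beside the same 5.19% of positions. Upstream, the opposite strand held 349 loci (13.9%) and the same strand 262 (10.5%), each beside 4.99% of positions. These shares are not like for like. A locus, of median width 526 bases, was measured from its nearest edge, and a position is a single base. A wide locus therefore counts as nearer to a gene end than most of its bases.

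In each library the downstream same-strand share within 5 kb was the highest of the 4, with loci that share a gene's end base counted. Loci downstream on the same strand within 5 kb were 22.2% of those seen in replicate 2 and 24.3% of those seen in replicate 1, and loci upstream on the opposite strand were 12.8% and 14.7%. Within 1 kb, 252 loci (10.1%) were downstream on the same strand, beside 1.29% of positions, and 202 (8.07%) were upstream on the opposite strand, the arrangement of a divergent promoter, beside 1.21%. Upstream on the same strand within 1 kb were 95 loci (3.8%), beside the same 1.21%.

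**Figure D3:**
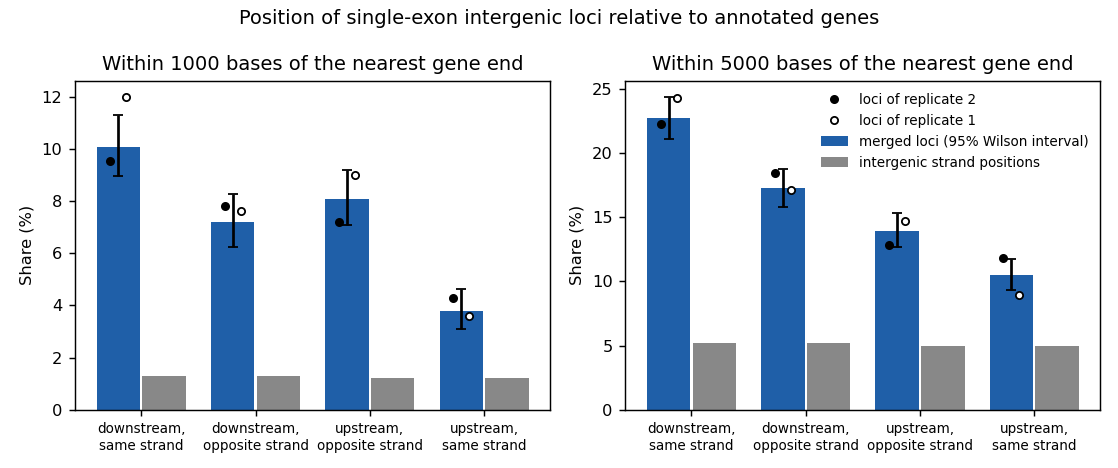
Share (%) of merged loci in each arrangement relative to the nearest annotated gene end, within 1000 bases (left) and 5000 bases (right), with 95% Wilson intervals, beside the share of intergenic strand positions in grey; points give the loci seen in each library. All 4 arrangements stand above their share of positions, from 22.7% against 5.19% downstream on the same strand to 10.5% against 4.99% upstream on the same strand within 5000 bases. Loci are measured from their nearest edge and positions are single bases.

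At close range the distances were not continuous. Exactly 1 base, the annotated gene end itself, was shared by 432 loci (17.3%), set here at distance 0. Of these, 175 were downstream on the same strand, 75 downstream on the opposite strand, 156 upstream on the opposite strand and 26 upstream on the same strand. Between 1 and 300 bases from a gene end lay 4, 3, 1 and 0 loci of these arrangements, in the same order.

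Between 301 and 500 bases, the arrangements whose 5′ end faces the gene still held few loci, 5 downstream on the same strand and 1 upstream on the opposite strand. Those whose 3′ end faces the gene held 34 downstream on the opposite strand and 23 upstream on the same strand. From 501 to 1000 bases the 4 arrangements held 68, 68, 44 and 46 loci, in the order first given. For a locus at distance 0, the deposited length is measured to the annotated gene end. With those 432 loci left out, 19% of the remaining 2070 loci were downstream on the same strand within 5 kb, and 2.22% were upstream on the opposite strand within 1 kb. Of the 202 loci in that divergent class, 156 shared the annotated start. Without loci at distance 0, fewer loci within 1 kb lay downstream on the same strand than downstream on the opposite strand. From 1001 to 5000 bases, 316 loci were downstream on the same strand and 251 downstream on the opposite strand.

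**Figure D4:**
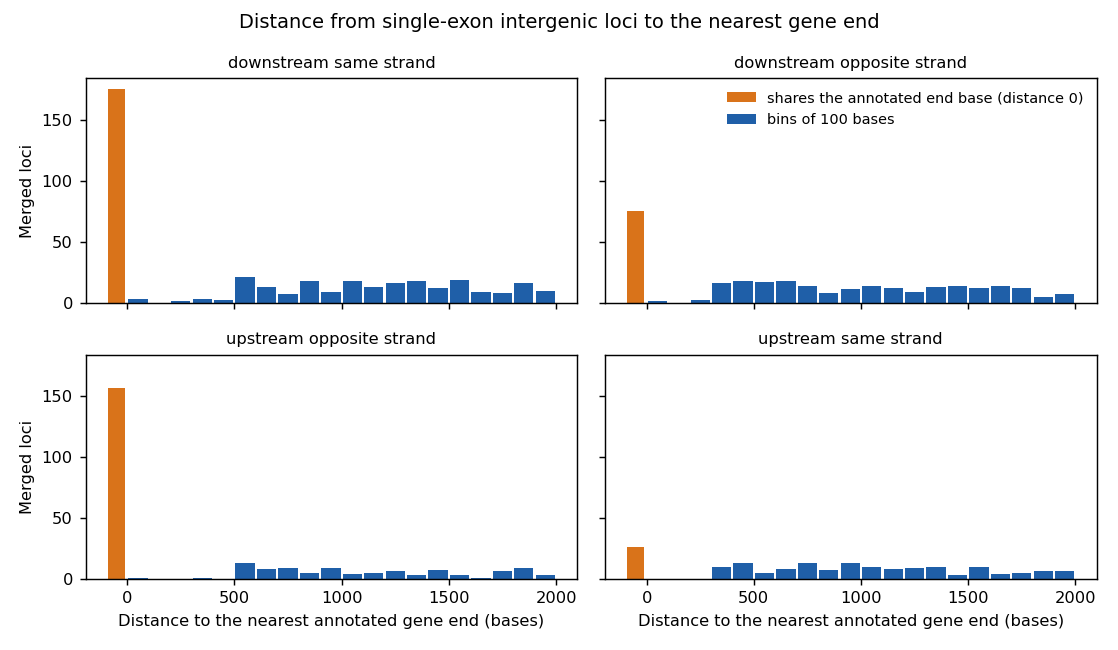
Number of merged loci by distance in bases to the nearest annotated gene end, in bins of 100 bases up to 2000, for the 4 arrangements, with loci that share the annotated end base drawn apart in orange. The orange bars reach 175, 75, 156 and 26 loci, and almost no locus lies from 1 to 300 bases.

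Divergent loci mostly had few reads. Within 5 kb upstream on the opposite strand, the 349 loci had a median of 1 read and at most 50 reads summed. The highest, chr12:103364173-103368772 on the minus strand, shared a base with the start of the unitary pseudogene Gm45777 and had 37 reads in replicate 2 against 13 in replicate 1. A 175-base locus 931 bases from Srm, the spermidine synthase gene, had 26 and 22 reads (chr4:148590398-148590572, minus strand). A locus 657 bases from Gm47908 had 22 and 20 reads (chr10:33478129-33480378, plus strand).

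At the start of Stk11, which encodes the kinase LKB1, a 3975-base locus ran away from the gene on the minus strand (chr10:80111829-80115803), with 10 reads in replicate 2 and 4 in replicate 1. The RefSeq promoter window of Stk11 is shown because it holds the deposited start of the divergent locus of most reads among those with such a window. It is written along the gene's strand (chr10:80115545-80115844, plus strand), and capitals mark the 259 bases that the locus covers. The locus is at distance 0, so its deposited 5′ end is the annotated start itself, and whether the reads begin there was not tested.
Stk11 promoter: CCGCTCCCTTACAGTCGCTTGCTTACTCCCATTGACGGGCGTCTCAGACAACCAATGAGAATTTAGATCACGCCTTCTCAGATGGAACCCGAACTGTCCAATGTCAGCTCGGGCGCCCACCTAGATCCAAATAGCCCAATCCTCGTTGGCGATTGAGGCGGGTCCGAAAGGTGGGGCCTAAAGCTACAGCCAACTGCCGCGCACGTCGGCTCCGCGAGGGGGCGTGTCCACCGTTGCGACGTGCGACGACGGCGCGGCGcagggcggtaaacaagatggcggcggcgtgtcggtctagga

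This window held GGGCGG and CCAAT on at least 1 strand and no TATAAA. Over 31396 RefSeq promoter windows, 36% held GGGCGG, 37.3% held CCAAT and 13.6% held TATAAA, on either strand.

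Upstream on the same strand, loci within 5 kb also had a median of 1 read, and at most 28 reads summed. Some loci of this arrangement farther from the gene had more, such as those near Gm49272 and Ntsr2 described below. The highest locus of that arrangement within 5 kb (chr15:86212657-86214459, minus strand) shared a base with the snRNA gene Gm22818 and had 15 reads in replicate 2 against 13 in replicate 1. A 176-base locus 3170 bases before Lims2, an adaptor of integrin adhesions, had 9 and 6 reads (chr18:31918945-31919120, plus strand), and a 4303-base locus 4081 bases before Dhx40, an RNA helicase, had 3 and 8 reads (chr11:86811827-86816129, minus strand).

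Some loci lay inside genes as RefSeq records them, and a part of these ended where the RefSeq gene ends. A same-strand RefSeq gene covered at least 50% of the width of 309 loci (12.4% of all), and 113 of these (36.6%) ended within 25 bases of that gene's 3′ end, with a median gap of 3 bases. Those inside protein-coding RefSeq genes ended there in 66 of 154 cases (42.9%), and those inside RefSeq lncRNA genes in 15 of 109 (13.8%).

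Zbtb16, a zinc-finger transcription factor, had 26 locus reads in replicate 2 and 18 in replicate 1, ending 17 bases past the RefSeq end. Prima1, which anchors acetylcholinesterase to membranes, had 16 and 6 reads and ended 1 base past it. Hipk2, a nuclear kinase, had 10 and 12 reads, and its locus began 4843 bases from the annotated gene end and ended 2 bases before the RefSeq end. Adcy9, an adenylyl cyclase, had 10 and 9 reads, and Srl, the sarcoplasmic reticulum protein sarcalumenin, had 11 and 4 reads. These genes were among the protein-coding ones of most locus reads at matched ends and were chosen after their values were seen. Of the loci inside a RefSeq gene, 67 (21.7%) were in both libraries, against 346 of the 2193 others (15.8%).

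Genes next to loci more often had reads than annotated genes at large. The neighbouring gene had at least 10 reads for 51.4% of loci within 5 kb downstream on the same strand in replicate 2 and 54.4% in replicate 1, beside 14.2% and 14.4% of 51229 annotated autosomal genes. For loci within 5 kb upstream on the opposite strand, the shares were 53.6% and 55.6%. The annotated genes were of every type, whereas 67.15% of all loci were nearest a protein-coding gene. The first shares count loci and the second count genes, and the sets were not matched for gene type. Across loci within 5 kb downstream on the same strand, the Spearman correlation between locus and gene reads was 0.15 in replicate 2 (389 loci) and 0.2 in replicate 1 (283 loci). These loci share a library and its depth, and most have 1 read.

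Of 39 listed muscle genes on these chromosomes, 6 (15.4%) had a locus within 5 kb downstream on the same strand. Among 9065 annotated genes with at least 10 reads, 326 did (3.6%). The 2 sets were not matched for reads. In replicate 2 and replicate 1, the listed genes ran from 149 and 170 reads at Hspb1 to 194599 and 201493 at Atp2a1. The locus at Actn2, the Z-disc protein alpha-actinin-2, shared the gene's last base and had 15 reads in replicate 2 and 14 in replicate 1. The other loci, at the titin gene Ttn, the parvalbumin gene Pvalb, the adenylate kinase gene Ak1, the tropomyosin gene Tpm1 and the troponin I gene Tnni2, had at most 2 reads in either library. Acta1, Ckm, Atp2a1 and Tnnc2, skeletal actin, creatine kinase, the calcium pump and fast troponin C, had none.

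The density of loci differed between chromosomes. It ranged from 1.33 per Mb of intergenic sequence on chromosome 1 to 4.03 per Mb on chromosome 11, with 3.22 on chromosome 19. Over the 19 chromosomes, its Spearman correlation with annotated genes per Mb of intergenic sequence was 0.82.

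Few members lay far from genes. Beyond 50 kb from any annotated gene end lay 86 loci (3.44%) with 125 reads summed and a median width of 202.5 bases. The highest had 5 reads in replicate 2 and 2 in replicate 1 (chr1:14664666-14664854, plus strand), 88083 bases from Gm9947. The next had 3 and 2 reads (chr5:85886931-85887104, plus strand) and 4 and 1 reads (chr18:89835792-89835942, plus strand). Each library placed reads at all 3 of them.

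The libraries were compared locus by locus. Fisher's exact test, two-sided, set the reads of a locus against the remaining reads of each library, adjusted by Benjamini-Hochberg over 9411 annotated genes and loci with at least 10 reads summed. With 1 library per animal, this test covers counting error alone and compares the libraries, not conditions. Of all features tested, 7.97% passed an adjusted p of 0.05. Of the 70 loci tested, 16 (22.9%) passed, 14 of them higher in replicate 2, where 4.37% of all features were, and 2 lower, where 3.6% were. The 70 loci had a median log2 fold of replicate 2 over replicate 1 of 0.80, beside -0.01 over all features, and 57 of them had more reads per library total in replicate 2.

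**Figure D5:**
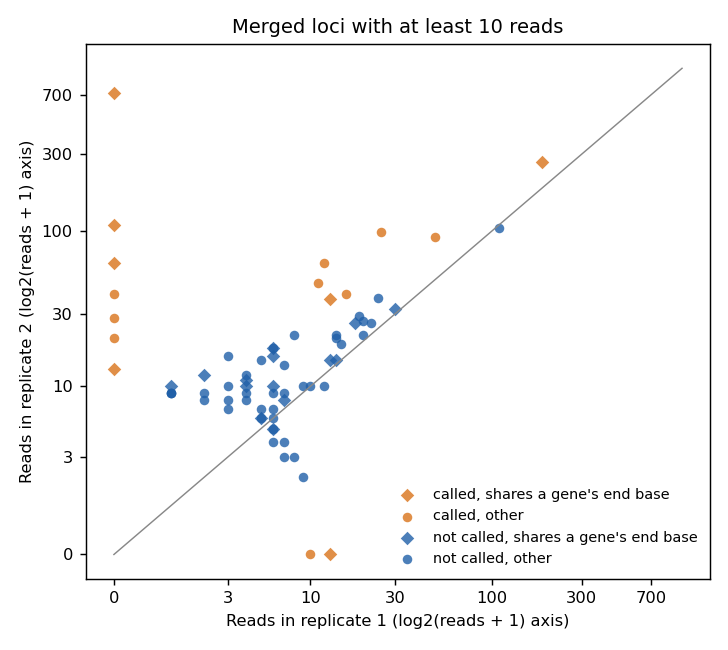
Reads of the 70 merged loci with at least 10 reads, replicate 2 on the vertical axis and replicate 1 on the horizontal axis, both on a log2(reads + 1) scale, with the line of equal reads; called loci are orange and loci that share a gene's end base are diamonds. Of the loci on the left edge, with 0 reads in replicate 1, the highest reach 716, 109 and 63 reads in replicate 2.

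Loci at the ends of processed pseudogenes carried the largest differences, and in each of the 5 called ones the pseudogene's own reads were higher in the other library. Processed pseudogenes are intronless copies of mRNAs, and reads from a parent gene can be placed on them, so their counts are uncertain. The locus at Gm12671 (chr4:91851488-91851668, minus strand) had 716 reads in replicate 2 and 0 in replicate 1, at least 237-fold higher against a floor of 3 counts per library (adjusted p = 6.85e-212, Fisher's exact test). The annotated Gm12671 had 552 reads in replicate 2 and 1862 in replicate 1. Locus and gene together had 1268 and 1862 reads, lower in replicate 2 (adjusted p = 2.91e-25, Fisher's exact test).

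The locus at Pgk1-rs7, a copy related to phosphoglycerate kinase (chr12:10898572-10898986, minus strand), had 109 reads in replicate 2 and 0 in replicate 1, at least 36.1-fold higher. The gene itself had 58 and 176 reads, and with the locus the sums were 167 and 176 (adjusted p = 0.884, Fisher's exact test). The locus at Gm5537 (chr3:58102578-58102996, minus strand) had 63 and 0 reads, at least 20.8-fold higher. With the 59 and 108 reads of the gene, the sums were 122 in replicate 2 and 108 in replicate 1 (adjusted p = 0.756, Fisher's exact test). The locus at Gm9755 (chr8:67514002-67514235, minus strand) ran the opposite way, with 0 reads in replicate 2 and 13 in replicate 1, at least 4.37-fold lower, and sums of 57 and 45 with its gene (adjusted p = 0.655, Fisher's exact test). Tpt1-ps3, a copy of the translationally controlled tumour protein mRNA outside the rule for named loci, had 13 and 0 locus reads and sums of 17 and 12 (adjusted p = 0.809, Fisher's exact test).

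At 3 more called loci, models of another class overlapped the locus on the same strand by at least 2 bases. One lay 351 bases downstream of Psmd4, a proteasome subunit, on the opposite strand (chr3:95027514-95032343, plus strand). It had 40 reads in replicate 2 and 0 in replicate 1, where 25 reads of another class overlapped it. All classes together gave 40 and 25 reads (adjusted p = 0.36, Fisher's exact test). Downstream of Eef1a2, the elongation factor of mature muscle (chr2:181141336-181145075, minus strand), the locus had 21 and 0 reads, and all classes 21 and 29 (adjusted p = 0.641, Fisher's exact test). Downstream of Ubxn2a (chr12:4876665-4878506, minus strand), the locus had 0 and 10 reads, and all classes 124 and 86 (adjusted p = 0.102, Fisher's exact test).

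The other 8 called loci were all higher in replicate 2. None of them shared a base with a gene on its own strand, and models of another class overlapped only the locus at Gm6969, so adding such reads was no check of the other 7. At the 3′ end of Dyrk1b, a kinase gene, on the opposite strand, the locus of most reads in both libraries had 270 reads in replicate 2 and 185 in replicate 1 (chr7:28187294-28188672, minus strand). This was 1.45-fold higher (95% interval 1.2 to 1.75, adjusted p = 0.00256, Fisher's exact test). Dyrk1b itself had 96 and 93 reads.

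A 178-base locus 30552 bases upstream of Gm49272 (chr15:103619063-103619240, plus strand) had 98 reads in replicate 2 and 25 in replicate 1, 3.89-fold higher (2.52 to 6.01, adjusted p = 1.83e-09, Fisher's exact test). A 125-base locus 21210 bases downstream of Gm807 (chr13:99128790-99128914, plus strand) had 63 and 12 reads, 5.21-fold higher (2.84 to 9.57, adjusted p = 1.13e-07, Fisher's exact test). Both were short, and the nearest annotated gene had no reads in either library. A 170-base locus 3312 bases from Igsf23 on the opposite strand (chr7:19933824-19933993, plus strand) had 28 and 0 reads, at least 9.26-fold higher (adjusted p = 4.46e-07, Fisher's exact test).

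A 3397-base locus lay 2804 bases downstream of Slc25a4, the mitochondrial ADP/ATP carrier of muscle, on the opposite strand (chr8:46200597-46203993, plus strand). It had 47 reads in replicate 2 and 11 in replicate 1, 4.24-fold higher (2.22 to 8.08, adjusted p = 8.25e-05, Fisher's exact test). The gene itself had 14222 and 12246 reads. A 3878-base locus 9721 bases upstream of Ntsr2 (chr12:16639784-16643661, plus strand) had 40 and 16 reads, 2.48-fold higher (1.4 to 4.39, adjusted p = 0.0283, Fisher's exact test). The locus at Gm45777 described above was 2.82-fold higher (1.52 to 5.26, adjusted p = 0.0164, Fisher's exact test). Beside the pseudogene Gm6969, which RefSeq extends over the locus (chr12:24638003-24638134, minus strand), 91 and 49 reads were counted, 1.84-fold higher (1.3 to 2.6, adjusted p = 0.00994, Fisher's exact test), while the annotated gene had 19 and 41 reads, again higher in the other library. Locus and gene together had 110 reads in replicate 2 against 90 in replicate 1, a sum that was not tested. With a dispersion of 0.01 set in edgeR's exact test, the loci at Dyrk1b (adjusted p = 0.434), Gm6969 (0.189), Gm45777 (0.1065) and Ntsr2 (0.1637) no longer passed, and with no minimum of reads the Ntsr2 locus had an adjusted p of 0.0537 by Fisher's exact test.

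Several abundant loci did not pass the test, and their intervals are given. A 6075-base locus 6331 bases downstream of the lincRNA Gm26615 (chr4:133095477-133101551, plus strand) had 104 reads in replicate 2 against 109 in replicate 1, and a fold of 0.947 (95% interval 0.724 to 1.24). The deposited models differed: in replicate 2, 89 reads were in a 264-base model and 15 in a 5179-base model, and in replicate 1 all 109 were in a 6075-base model. Gm26615 itself had 0 and 1 reads. A 2825-base locus lay 784 bases downstream of Mir8091 on the opposite strand (chr19:41589573-41592397, minus strand). It had 38 reads in replicate 2, in a 708-base model, and 24 in replicate 1, in a 2825-base model (1.57-fold, 0.948 to 2.61). A 171-base locus downstream of the pseudogene Gm8116 (chr9:78818587-78818757, minus strand) had 29 and 19 (1.51-fold, 0.856 to 2.68).

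The longest locus with at least 2 reads in each library followed the muscle microRNA gene Mir133a-2 on its strand (chr2:180398482-180406620, plus strand; 8139 bases). It had 32 reads in replicate 2 against 30 in replicate 1, and a fold of 1.06 (95% interval 0.646 to 1.73). Models of another class also overlapped it on the same strand, with 27 reads in replicate 2 and 29 in replicate 1. The locus joined 2 stretches. The first began at the microRNA gene's last base and ended at position 180401796 in replicate 2 (6 reads) and 180401807 in replicate 1 (2 reads). The second ended at 180406620 in replicate 2 (26 reads) and 180406615 in replicate 1 (28 reads), but began at 180401796 in replicate 2 and 180402362 in replicate 1. In replicate 2 the stretches shared 1 base, and in replicate 1 a gap separated them.

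Among loci below the minimum for a test, the highest in replicate 1 alone had 9 reads against 0 in replicate 2. One lay at the last base of Bnip3, a mitophagy receptor (chr7:138888962-138890836, minus strand), whose gene had 639 reads in replicate 2 and 557 in replicate 1. The other shared the end base of Baz2a on the opposite strand (chr10:128129303-128131558, minus strand), inside the RefSeq gene Rbms2. At both, models of another class overlapped the locus in each library, with 16 and 7 reads at Bnip3 and 6 and 5 reads at Baz2a.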

How the data were processed

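The deposited values are raw counts: how many long reads the authors assigned to a transcript model, not normalized. Alignment to mm10 and use of GENCODE M21 are taken from the deposited notes. The annotation's source name is TALON, per the file headers. For the aligner, read filters and platform, the sources used here give nothing. Reads without molecular identifiers are not independent molecules, so intervals and floors cover counting error only.

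Model positions came from each library's deposited annotation. Models were merged into loci by same-strand overlap of at least 1 base, and the nearest gene end was taken from GENCODE M21 gene records, because the deposited gene records differ for 16044 and 16000 of 55536 genes in replicate 2 and replicate 1. Intergenic positions were all autosomal bases between 2 annotated genes, counted on both strands. RefSeq genes and promoter windows (GRCm38.p6) supplied sequences; 35569 of 35609 genes matched by symbol overlapped the GENCODE gene.

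Fisher's exact test used scipy 1.17.1 with a minimum of 10 reads summed and a floor of 3 counts per library, and was tested on simulated data. No edgeR quasi-likelihood fit was possible with 1 library per animal, so edgeR 4.0.16 and DESeq2 1.42.0 served as alternatives. Replicate numbers pair nothing, since there is 1 group.

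Loci were named as the 12 of most reads in both libraries, the top 4 seen in each library alone, up to 6 called loci of largest and smallest fold, the top 3 of each arrangement within 5 kb and beyond 50 kb, and the longest locus with 2 or more reads per library. The members, lists and rules were chosen with earlier results of these data known. The RefSeq and promoter-window comparisons and the length class were chosen after seeing the data.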

Additional observations from a re-analysis of the deposited data

Results flagged for a closer look

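Single-exon intergenic models were also counted on chromosome Y, outside the chromosomes described above, although both libraries are labelled female. They held 276 reads in replicate 2 and 181 in replicate 1. Most lay in 2 loci: chrY:67834526-67839306 on the minus strand had 195 and 130 reads, and chrY:37763151-37767375 on the minus strand had 50 and 37 reads. The annotated genes of chromosome Y together had 16 reads in replicate 2 and 17 in replicate 1.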

How the results depend on the processing

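The number of called loci was 16 of 70 tested. It lay between 11 and 18 under the alternatives of read minimum, library size (edgeR TMM, DESeq2 size factors, total without mitochondrial and spike-in reads), joined gaps and set dispersion. A dispersion of 0.01 in edgeR's exact test gave the 11. The number tested changed with the read minimum: 18 of 192 loci were called at 5 reads, 13 of 34 at 20 reads and 15 of 2502 with no minimum. The share called therefore moved widely. In the main setting 7.97% of all features were called, and this share was not counted for the alternatives. Adding the touched gene or other classes gave 15 each, but not the same loci. Of the 16 calls, 5 were lost or turned with the touched gene and 3 with other classes. Only 8 were called in the same direction under both additions. Leaving out loci that share a gene's end base gave 9 of 49. Of 24 named loci tested, 236 values under 10 settings included 223 with an unchanged call and 8 that lost their call. Many of these values could hardly change. Joined gaps left the adjusted p of the named loci as it was, and the read minima altered only the adjustment. Added reads altered the counts only of loci that had such reads. Loci uncalled under both settings also count as unchanged, so the 223 do not measure robustness. The 5 reversals all came from added reads: Gm12671 (adjusted p = 2.91e-25), Pgk1-rs7 (0.884) and Gm9755 (0.655) with the touched gene, and Eef1a2 (0.641) and Ubxn2a (0.102) with other classes. With a dispersion of 0.01, Dyrk1b (adjusted p = 0.434), Gm6969, Gm45777, Ntsr2 and Ubxn2a lost their call.

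Recurrence moved with the read minimum: 41.6% of models with at least 2 reads recurred against 29.8%, and 55.7% of loci with at least 2 reads and 87.1% of those with at least 10 were in both libraries against 16.5%. The mean median length of 559.5 bases moved to 1015.2 for models with at least 2 reads, 797.8 weighted by reads and 817 without lengths of 170 to 179 bases, whose share of 14.8% moved to 13.2% for models with at least 2 reads. The share downstream on the same strand, 22.7% within 5 kb, was 10.1% within 1000 bases, 26.5% within 10000, 18.15% for protein-coding genes alone, 28.2% for loci with at least 2 reads, 25.2% for loci in both libraries, 18.9% outside RefSeq genes and 19% without loci at a gene's end base. The share upstream on the opposite strand, 8.07% within 1 kb, was 6.32% within 500 bases, 13.95% within 5000 and 2.22% without loci at a gene's end base. The cause of these shifts was not tested, other than the wider or narrower distances themselves.

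Leaving out each replicate in turn gave 22.2 to 24.3% downstream on the same strand, 7.2 to 9.01% upstream on the opposite strand, 23.9 to 35.6% of models recurring, 0.174 to 0.358% of reads, 73.1 to 76.1% single-read models, 465 to 654 bases and 14.3 to 15.2% in the 170 to 179 base class. No paired analysis was possible because the study has 1 group. The planned counts of A-rich ends and polyadenylation signals over all members, with their alternatives, were not run, since no genome sequence was used here. Depth is the main limit: 1760 of 2502 loci rest on 1 read.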
